A study of Homo sapiens with 8 samples.

Results

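The 7 genes described here, KCNH2, APLNR, GPR85, LRFN4, ITLN2, WNT5B and GRIK4, encode proteins of the cell surface or proteins that are secreted, and they were chosen because their transcripts were among those that fell most under the drug OTX015. They were found by their symbols in the deposited table, where each of the 7 matched 1 row of 19718 coding genes, and all 7 were among the 11255 genes tested. OTX015 (birabresib) is an inhibitor of BET bromodomain proteins. RNA was sequenced from total RNA in 4 groups of 2 libraries: HEL OTX P/R cells in 1000 nM OTX015 for 8 hours, untreated HEL OTX P/R cells, parental HEL92.1.7 cells in the same dose for 8 hours, and untreated parental cells. HEL92.1.7 is an erythroleukaemia line, labelled secondary acute myeloid leukaemia, and HEL OTX P/R, called P/R below, is a derivative that persists in and resists the drug. The labels state no vehicle for the untreated cells and describe 1 derivative, so the resistant state is represented by a single line, and the replicates are called biologic and independently treated.

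BET proteins bind acetylated histone tails at promoters and enhancers and help RNA polymerase II to be released into elongation, and transcripts that depend on strong enhancers are often among the first to fall when the bromodomains are blocked. KCNH2 and GRIK4 encode ion channel subunits, APLNR and GPR85 encode G protein-coupled receptors, LRFN4 encodes an adhesion protein of the membrane, and ITLN2 and WNT5B encode secreted proteins. Most of these genes are better known from heart, vessel, nerve or gut than from blood cells.

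The values are FPKM, which are fragments divided by transcript length and by the fragments of the library, a unit inferred from the values and the tools named, and the authors had quantile normalized them across libraries. Each library therefore totals 678133 FPKM, the depth is unknown, and a general fall in RNA per cell or in cell number could not be seen or told apart. All 14 erythroid and megakaryocyte markers examined, among them HBG1, GATA1 and ITGA2B, reached 1 FPKM in at least 1 library. Of 7 neuronal markers only TUBB3 reached that level, and SNAP25, GAP43 and STMN2 were at 0 in all 8 libraries; the 7 summed to 16.4 and 4.12 to 4.39 FPKM in treated and untreated P/R cells, and to 19.6 to 19.9 and 4.07 to 4.54 FPKM in treated and untreated parental cells. None of the 6 cardiac muscle markers and none of the 5 stromal markers reached it, and of 6 lymphocyte markers CD79A and CD79B did, with a sum of all 6 of 2.45 to 2.76 and 3.89 to 3.98 FPKM in treated and untreated P/R cells, and 5.32 to 5.68 and 10.2 to 10.7 FPKM in treated and untreated parental cells. Of the listed epithelial markers KRT8 alone reached 1 FPKM, and the 6 listed summed to 21.7 to 22.1 FPKM in P/R cells under OTX015 and 15.7 to 16 FPKM in untreated P/R cells, against 4.02 to 4.1 and 3.79 to 4.11 FPKM in parental cells. Of 7 endothelial markers CDH5, TEK, EGFL7 and ESAM reached it, with a sum of all 7 of 589 to 617 FPKM in P/R cells under OTX015, 614 to 621 FPKM in untreated P/R cells, 357 to 364 FPKM in parental cells under OTX015 and 422 to 445 FPKM in untreated parental cells; the part of these markers in the results below was not tested. HEXIM1, known to rise when BET proteins are blocked, averaged 64.6 ± 0.468 and 23.1 ± 0.107 FPKM in treated and untreated P/R cells, and 87.9 ± 4.57 and 26.6 ± 0.152 FPKM in treated and untreated parental cells (SD, n = 2 each). MYC averaged 390 and 461 FPKM in treated and untreated P/R cells, and 434 and 501 FPKM in treated and untreated parental cells.

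Since the members fell together, their promoters were read from the RefSeq promoter table (build GRCh38.p14), which covers 250 bases before and 50 bases after each annotated start and matched 6 of the 7 genes, APLNR being the other. The most upstream start of each gene was taken, because the files do not say which start was used in these cells. The 4 sequences below show how different these promoters were in base composition. They lie at chr7:150978272-150978571 (minus strand), chr7:113087675-113087974 (minus strand), chr11:66856814-66857113 (plus strand) and chr1:160954760-160955059 (minus strand). Capitals mark every match, on either strand, to the TATA box as TATAAA, the box named CCAAT, the GC box as GGGCGG, the E box as CACGTG or in the form CAGCTG, the GATA-type motif GATAA with its longer form AGATAA, which overlaps it, the AP-1-type motif TGANTCA and the ETS-type motif CCGGAAG.
KCNH2: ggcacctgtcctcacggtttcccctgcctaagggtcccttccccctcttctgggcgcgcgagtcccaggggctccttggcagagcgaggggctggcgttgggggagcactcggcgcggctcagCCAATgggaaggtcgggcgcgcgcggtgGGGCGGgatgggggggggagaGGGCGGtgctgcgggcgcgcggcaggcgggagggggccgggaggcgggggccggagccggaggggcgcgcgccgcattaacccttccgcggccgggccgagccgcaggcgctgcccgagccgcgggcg
GPR85: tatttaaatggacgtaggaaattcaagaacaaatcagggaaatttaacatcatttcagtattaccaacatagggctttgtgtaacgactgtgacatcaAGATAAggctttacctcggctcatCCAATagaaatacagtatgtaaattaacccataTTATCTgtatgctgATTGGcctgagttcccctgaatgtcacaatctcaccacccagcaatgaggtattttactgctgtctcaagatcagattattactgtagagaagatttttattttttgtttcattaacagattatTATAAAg
LRFN4: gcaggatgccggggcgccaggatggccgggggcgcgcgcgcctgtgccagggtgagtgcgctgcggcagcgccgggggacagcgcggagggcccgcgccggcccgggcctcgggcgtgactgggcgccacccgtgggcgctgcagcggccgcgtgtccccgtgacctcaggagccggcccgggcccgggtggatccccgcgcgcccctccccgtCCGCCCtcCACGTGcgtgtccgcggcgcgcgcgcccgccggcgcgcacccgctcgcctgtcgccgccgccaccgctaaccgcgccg
ITLN2: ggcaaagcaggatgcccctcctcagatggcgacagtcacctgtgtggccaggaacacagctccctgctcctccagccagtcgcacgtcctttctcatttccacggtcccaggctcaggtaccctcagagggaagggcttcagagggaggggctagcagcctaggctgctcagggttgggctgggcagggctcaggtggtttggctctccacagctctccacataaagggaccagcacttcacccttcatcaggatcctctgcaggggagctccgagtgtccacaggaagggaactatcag

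The promoters of KCNH2 and LRFN4 held 78.3% and 83.3% G and C, that of ITLN2 60.7% and that of GPR85 34.3%, where the median of all 35116 promoters in the table was 58.7% with quartiles of 47% and 68%. GRIK4 stood highest of the 6 at 84.3% and WNT5B was at 51.7%. The GC box GGGCGG was found in 3 of 6 (KCNH2, LRFN4 and GRIK4) and in 45% of all promoters, and CCAAT in 2 of 6 (KCNH2 and GPR85) and in 34.6% of all. The GATA-type motif GATAA was found in 2 of 6 (GPR85 and WNT5B) and in 22.7% of all, and its longer form AGATAA in GPR85 and in 10.3% of all. TATAAA was in GPR85 alone (11.5% of all), CACGTG in LRFN4 alone (7.26% of all) and CAGCTG in GRIK4 alone (17.9% of all). The TATAAA match of GPR85 lay in the 50 bases after the annotated start, and whether it serves as a TATA box was not tested. TGANTCA and CCGGAAG had no match in the 6 windows, against 7.71% and 10.3% of all promoters, and ITLN2 matched none of the 9 motifs. No motif was common to the 6 windows. KCNH2 has 5 starts in the promoter table and GPR85, WNT5B and GRIK4 have 2 each, of which only the most upstream was read. The shares of all cover every promoter in the table, so the 2 sets are not alike.

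KCNH2 (ENSG00000055118.14) encodes the pore-forming subunit of the hERG potassium channel, which repolarizes heart muscle cells and has been described in leukaemic blasts. Its level was 12.3 and 8.09 FPKM in P/R cells under OTX015, against 67.2 and 69.8 FPKM in untreated P/R cells. In parental cells it was 8.87 and 8.12 FPKM under OTX015, against 80.2 and 78.4 FPKM untreated. KCNH2 was the most abundant of the 7 transcripts on this per-length scale by the mean of every group, and treated and untreated libraries were far apart in both lines. P/R cells under OTX015 kept 14.9% of their untreated mean, and parental cells kept 10.7%, which are falls of 6.71-fold and 9.33-fold.

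GRIK4 (ENSG00000149403.11) encodes a subunit of kainate receptors, the glutamate-gated cation channels, which needs partner subunits of the same family to form a channel. Its level was 4.25 and 11 FPKM in P/R cells under OTX015, against 33.6 and 58.8 FPKM in untreated P/R cells. In parental cells it was 4.84 and 10.7 FPKM under OTX015, against 37.3 and 17.1 FPKM untreated. GRIK4 was the least reproducible of the 7 genes: treated and untreated libraries did not overlap in either line, but within each group 1 library was far above the other. The means kept were 16.5% in P/R cells and 28.5% in parental cells, and depending on which libraries were set against each other the share ran from 7.22% to 32.7% in P/R cells and from 13% to 62.2% in parental cells. Without P/R OTX015 replicate 2 the P/R share was 9.2%, and the parental share was 45.2% without parental untreated replicate 1 and 17.8% without parental OTX015 replicate 2.

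APLNR (ENSG00000134817.10) encodes the receptor for the peptides apelin and ELABELA, known from blood vessel growth and heart development. It was at 4.64 and 2.81 FPKM in P/R cells under OTX015, against 22.9 and 21.8 FPKM in untreated P/R cells. Parental cells had 1.3 and 1.21 FPKM under OTX015, against 15.8 and 16 FPKM untreated. The treated parental libraries were the lowest of all, and the share kept was 16.7% in P/R cells and 7.89% in parental cells. The parental loss of APLNR was the deepest of any member in either line.

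GPR85 (ENSG00000164604.12) encodes an orphan receptor of the SREB family that is strongly conserved and best known from brain. It was at 4.21 and 3.04 FPKM in P/R cells under OTX015, against 17.8 and 17.4 FPKM in untreated P/R cells. In parental cells it was at 4.19 and 3.9 FPKM under OTX015, against 29.9 and 35.7 FPKM untreated. The treated libraries of the lines overlapped, while the untreated parental libraries lay above the untreated P/R ones. P/R cells kept 20.6% and parental cells 12.3% of the untreated mean.

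LRFN4 (ENSG00000173621.8) encodes a membrane protein with leucine-rich repeats that takes part in the adhesion of synapses. It was at 7.04 and 6 FPKM in P/R cells under OTX015, against 21.8 and 26.3 FPKM in untreated P/R cells. Parental cells had 2.56 and 2.69 FPKM under OTX015, against 20.2 and 21.1 FPKM untreated. The untreated libraries of the lines were close to each other and the treated ones were not. LRFN4 kept 27.1% of its untreated mean in P/R cells, the largest share of the 7 in that line, and 12.7% in parental cells. The gene body of LRFN4 overlaps that of PC on the opposite strand in the annotation used, and no source used here says whether strand was kept in counting.

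ITLN2 (ENSG00000158764.6) encodes intelectin 2, a secreted protein of a small family of lectins that bind carbohydrates. It was at 7.04 and 5.27 FPKM in P/R cells under OTX015, against 31.7 and 31 FPKM in untreated P/R cells. In parental cells it was at 1.47 and 2.2 FPKM under OTX015, against 14.2 and 15.2 FPKM untreated. P/R libraries lay above parental ones in each state, and the share kept was 19.6% in P/R cells and 12.5% in parental cells.

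WNT5B (ENSG00000111186.12) encodes a secreted ligand of the WNT family that signals mostly without β-catenin. It was at 0.556 and 0.244 FPKM in P/R cells under OTX015, against 1.98 and 2.43 FPKM in untreated P/R cells. In parental cells it was at 0.514 and 0.921 FPKM under OTX015, against 8.09 and 7.57 FPKM untreated. WNT5B was the scarcest of the 7 in every group, and its mean was below 1 FPKM under OTX015 in each line, where an FPKM value is least precise. It kept 18.2% of its untreated mean in P/R cells and 9.16% in parental cells, and the P/R share was 11.1% without P/R OTX015 replicate 1. Its gene body overlaps that of FBXL14 on the opposite strand, with the same limit on strand as for LRFN4.

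**Figure D1:**
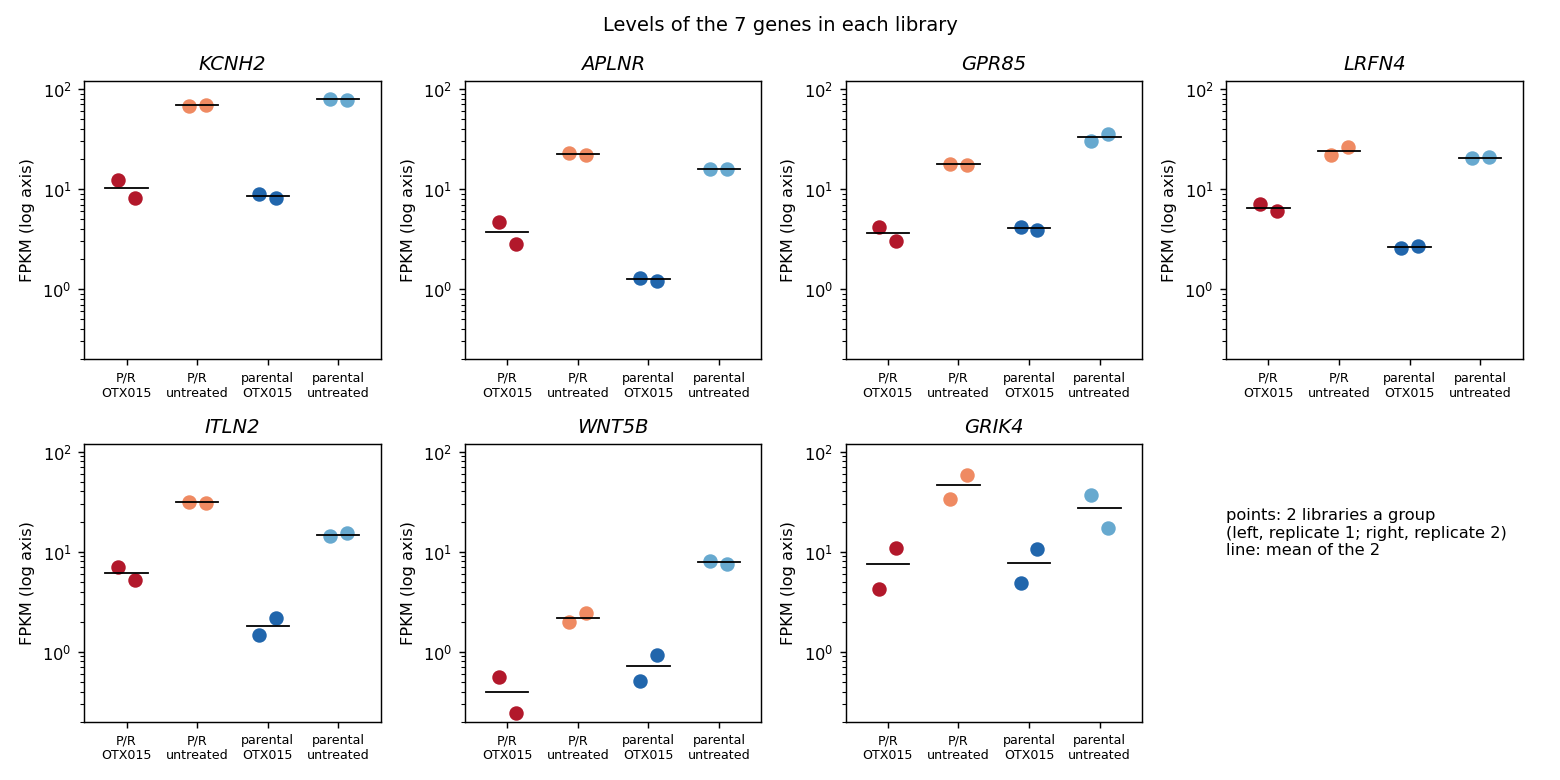
Level of each of the 7 genes in each library, in FPKM on a log axis, for P/R cells under OTX015, untreated P/R cells, parental cells under OTX015 and untreated parental cells; points are libraries and lines are group means. In every panel the treated libraries lie below the untreated ones of the same line, and the points of GRIK4 lie apart in all 4 groups.

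Treated and untreated libraries did not overlap for 7 of 7 members in P/R cells and 7 of 7 in parental cells; treated libraries lay below untreated ones without overlap for 34.9% of all tested genes in P/R cells and 36.4% in parental cells. The members were chosen on these contrasts, so their counts and sizes are a description only. Mean levels of the 7 under OTX015 ran from 0.4 to 10.2 FPKM with a median of 6.15 FPKM in P/R cells, against 2.2 to 68.5 FPKM with a median of 24.1 FPKM in untreated P/R cells. In parental cells they ran from 0.717 to 8.49 FPKM with a median of 2.62 FPKM under OTX015, against 7.83 to 79.3 FPKM with a median of 20.6 FPKM untreated. No member was listed at 0 in any library, so no listed value was lost entirely at 8 hours. WNT5B averaged below 1 FPKM under OTX015 in each line, and whether its transcript remained cannot be told from values this low. The share kept ran from 14.9% to 27.1% with a median of 18.2% in P/R cells, and from 7.89% to 28.5% with a median of 12.3% in parental cells, and a share of at most 30%, which all 7 had in each line, was reached by 0.800% of tested genes in P/R cells and by 1.45% in parental cells.

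In order of depth, P/R cells lost most of KCNH2, followed by GRIK4, APLNR, WNT5B, ITLN2, GPR85 and LRFN4, and parental cells lost most of APLNR, followed by WNT5B, KCNH2, GPR85, ITLN2, LRFN4 and GRIK4. When each treated library was set against each untreated one, the shares of genes next to each other in these orders overlapped in both lines. Some pairs of genes farther apart did not overlap: in P/R cells KCNH2 ran from 11.6% to 18.3% and LRFN4 from 22.8% to 32.2%, and in parental cells APLNR ran from 7.53% to 8.24% and KCNH2 from 10.1% to 11.3%. In P/R cells GRIK4, at 7.22% to 32.7%, overlapped every other member. The deepest loss in P/R cells also turned on single libraries: it was that of WNT5B without P/R OTX015 replicate 1 (11.1%, against 11.8% for KCNH2) and that of GRIK4 without replicate 2 (9.2%, against 18% for KCNH2). In FPKM, KCNH2 lost the most, 58.3 in P/R cells and 70.8 in parental cells, and WNT5B the least, 1.8 in P/R cells and 7.11 in parental cells. On the scale of log2(FPKM + 1), which understates the change of low genes, the changes in P/R cells were -2.66 for KCNH2, -2.52 for GRIK4, -2.33 for APLNR, -2.19 for ITLN2, -2.02 for GPR85, -1.74 for LRFN4 and -1.20 for WNT5B. In parental cells they were -3.08 for KCNH2, -2.91 for APLNR, -2.74 for GPR85, -2.58 for LRFN4, -2.48 for ITLN2, -2.37 for WNT5B and -1.68 for GRIK4. The log2 changes place KCNH2 ahead of APLNR in parental cells and WNT5B last in P/R cells, whereas the shares kept do not, because adding 1 FPKM weighs more on the scarce transcripts.

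**Figure D2:**
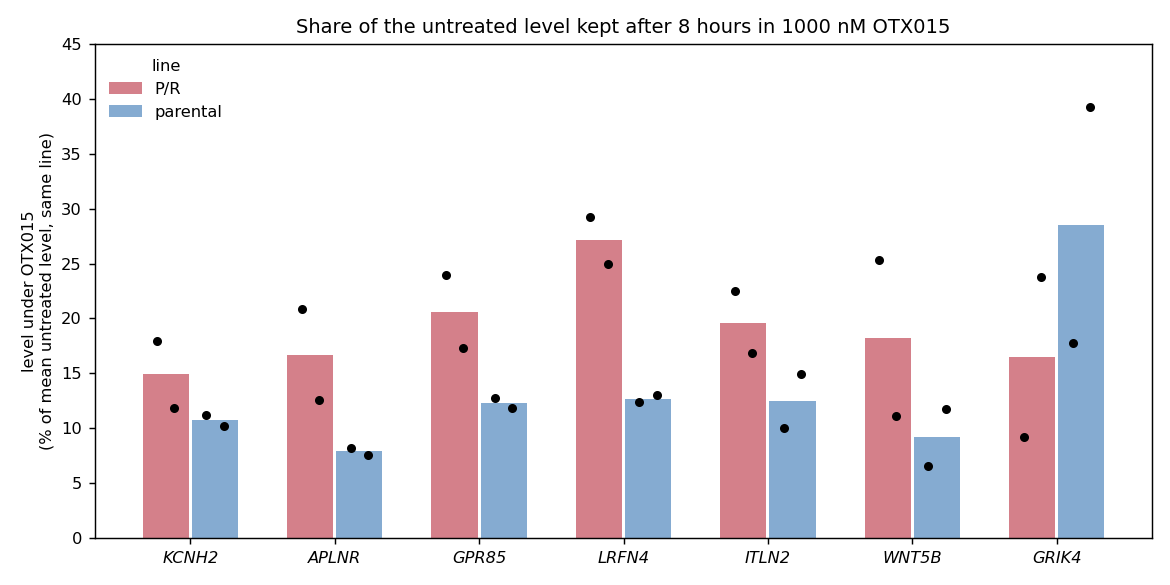
Level under OTX015 as a percentage of the mean untreated level of the same line, for P/R cells (left bar of each pair) and parental cells (right bar); bars are ratios of group means and points are the 2 treated libraries. The pairs of all genes but GRIK4 have the taller bar in P/R cells, and GRIK4 has it in parental cells, at 28.5% against 16.5% in P/R cells.

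The losses were shallower in P/R cells for 6 of 7 genes, with GRIK4 the exception, where 51.4% of all tested genes kept a larger share in P/R cells than in parental cells. Most tested genes did not fall deeply, the median share kept being 101% in P/R cells and 102% in parental cells, so the 51.4% is no measure for deep falls. A share of at most 30% was reached by 90 tested genes in P/R cells and by 163 in parental cells. Fewer deep losses in P/R cells are thus not particular to the 7 genes. The share kept in P/R cells was 1.39 times the parental share for KCNH2, 1.57 times for ITLN2, 1.67 times for GPR85, 1.99 times for WNT5B, 2.12 times for APLNR and 2.13 times for LRFN4, and 0.579 times for GRIK4. This difference was not tested, because the 6 genes are all among the 8 largest falls in parental cells, while GRIK4 ranked 5 among the falls of all tested genes in P/R cells and 44 in parental cells, so the choice of members favours these directions. The count stayed at 6 of 7 without each of the 8 libraries in turn, but some shares came close. Without P/R OTX015 replicate 1 the P/R and parental shares were 11.8% and 10.7% for KCNH2 and 11.1% and 9.16% for WNT5B. Without parental OTX015 replicate 2 they were 16.5% and 17.8% for GRIK4. For 6 of 7 members (all but GRIK4) P/R OTX015 replicate 1 read higher than replicate 2, by a median of 0.36 on the log2 scale over the 7. The same replicates were compared in genes other than the 7 that fell by at least 1 in parental cells with an adjusted p under 0.05 in limma. Replicate 1 was higher in 215 of 293 (73.4%), with a median of 0.10, against 51.6% of all other tested genes. In genes that rose by at least 1 in parental cells and passed the same threshold, replicate 1 was higher in 95 of 186 (51.1%), with a median of 0.0.

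**Figure D3:**
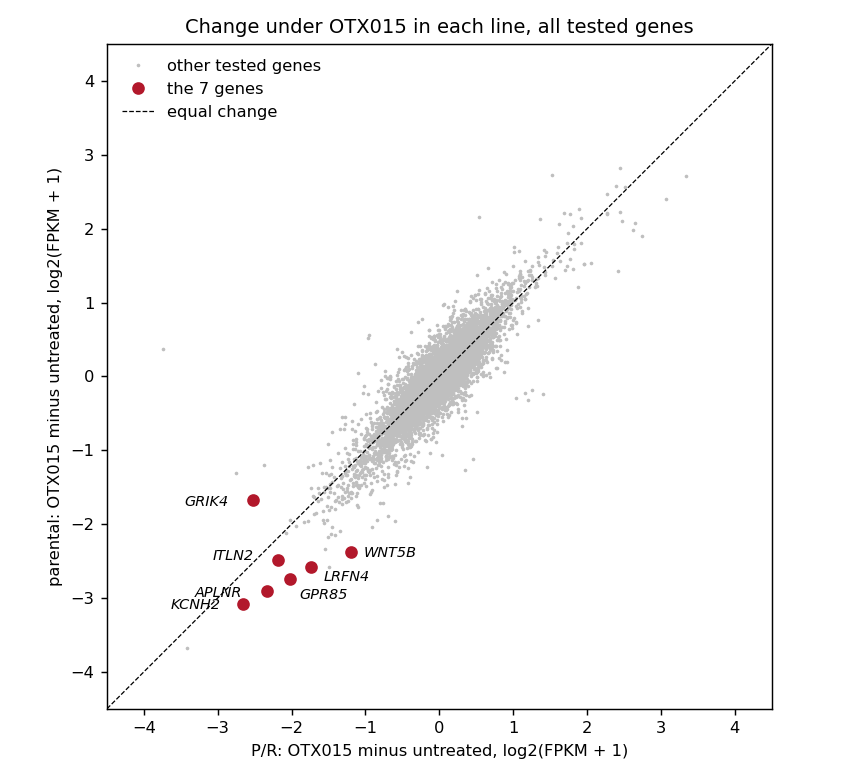
Change under OTX015 on the log2(FPKM + 1) scale in P/R cells (horizontal axis) and parental cells (vertical axis) for every tested gene, with the 7 genes in red and a dashed line of equal change. All but GRIK4 lie below the line, from KCNH2 at -2.66 and -3.08 to WNT5B at -1.20 and -2.37, and GRIK4 lies above it at -2.52 and -1.68.

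Among genes that passed limma's test with an adjusted p under 0.05, did not overlap between treated and untreated libraries and averaged 5 FPKM or more in 1 of these groups, 6 members held ranks 2 to 5, 7 and 8 of the falls in parental cells. The non-members nearest to them were IL1B at -3.68, a cytokine gene that ranked first, CSF1 at -2.58, which encodes macrophage colony-stimulating factor, and B3GNT7 at -2.34, a glycosyltransferase gene just below WNT5B. In P/R cells GAGE12B at -3.74 and IL1B at -3.41 ranked above KCNH2, as did ANGPT1 at -2.75, which encodes angiopoietin 1. GAGE12B belongs to a family of near-identical copies and was listed at 0 in both treated P/R libraries. WNT5B, at a P/R mean of 2.2 FPKM untreated, did not reach the 5 FPKM needed for a rank there.

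The lines were also compared in untreated cells. The untreated libraries had a part in the choice of members. Choosing most of them by falls in parental cells favours high untreated parental values, and so lower values in P/R cells. The count and p-values below are therefore a description. Among untreated cells 3 of 7 members passed the test between the lines, against 23.5% of all tested genes (limma on log2(FPKM + 1) over all 8 libraries, adjusted by Benjamini-Hochberg over all genes). WNT5B was lower in P/R cells, at 2.2 ± 0.322 FPKM against 7.83 ± 0.37 FPKM in parental cells (log2 difference -1.47, SE 0.156, adjusted p = 0.000169). GPR85 was also lower, at 17.6 ± 0.274 FPKM in P/R cells against 32.8 ± 4.12 FPKM in parental cells (-0.85, SE 0.128, adjusted p = 0.00122). ITLN2 was higher, at 31.3 ± 0.472 FPKM in P/R cells against 14.7 ± 0.717 FPKM in parental cells (1.04, SE 0.143, adjusted p = 0.000771).

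The other members did not pass in untreated cells. APLNR averaged 22.3 ± 0.781 FPKM in P/R cells and 15.9 ± 0.159 FPKM in parental cells (log2 difference 0.46, adjusted p = 0.0588), with no overlap of libraries. LRFN4 averaged 24.1 ± 3.17 and 20.6 ± 0.587 FPKM in P/R and parental cells (0.21, adjusted p = 0.199), KCNH2 68.5 ± 1.85 and 79.3 ± 1.26 FPKM (-0.21, adjusted p = 0.341), and GRIK4 46.2 ± 17.8 and 27.2 ± 14.2 FPKM (0.79, adjusted p = 0.283). The libraries of LRFN4 and KCNH2 did not overlap between the lines and those of GRIK4 did. Without either P/R OTX015 library, which this comparison does not contain but whose spread enters the shared fit, 5 members passed, KCNH2 and APLNR being added.

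Under OTX015 3 of 7 members again passed between the lines, against 24.4% of all tested genes, and all 3 were higher in P/R cells. The choice of 6 members by their falls in parental cells favours low treated parental values and so this direction, which makes the count and its p-values a description. ITLN2 averaged 6.15 ± 1.25 FPKM in P/R cells and 1.83 ± 0.514 FPKM in parental cells (log2 difference 1.34, SE 0.143, adjusted p = 0.000163 in limma). LRFN4 averaged 6.52 ± 0.729 FPKM in P/R cells and 2.62 ± 0.0903 FPKM in parental cells (1.05, SE 0.106, adjusted p = 0.000115). APLNR averaged 3.73 ± 1.3 FPKM in P/R cells and 1.25 ± 0.0673 FPKM in parental cells (1.04, SE 0.155, adjusted p = 0.00112). ITLN2 was thus higher in P/R cells in each state, while for LRFN4 and APLNR the call was made under the drug alone; the difference in response between the lines is the description given above, with no test.

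The remaining 4 did not pass under OTX015. KCNH2 averaged 10.2 ± 2.99 and 8.49 ± 0.53 FPKM in P/R and parental cells (log2 difference 0.21, adjusted p = 0.323), GPR85 3.63 ± 0.827 and 4.05 ± 0.21 FPKM (-0.14, adjusted p = 0.494), WNT5B 0.4 ± 0.221 and 0.717 ± 0.288 FPKM (-0.29, adjusted p = 0.213) and GRIK4 7.62 ± 4.77 and 7.75 ± 4.13 FPKM (-0.06, adjusted p = 0.95). The libraries of the lines overlapped for each of these 4 genes, and the 95% interval of the log2 difference was -0.42 to 0.15 for GPR85 and -0.65 to 0.06 for WNT5B, the genes that were lower in untreated P/R cells. For KCNH2 the value rested on the P/R replicates: it was 0.49 (adjusted p = 0.00365) without P/R OTX015 replicate 2 and -0.06 without replicate 1. Both line comparisons use libraries that also entered the choice of members, and since an exact permutation test of 2 libraries against 2 cannot go below a two-sided p of 0.333, the p-values rest on the spread that limma shares among genes and groups.

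**Figure D4:**
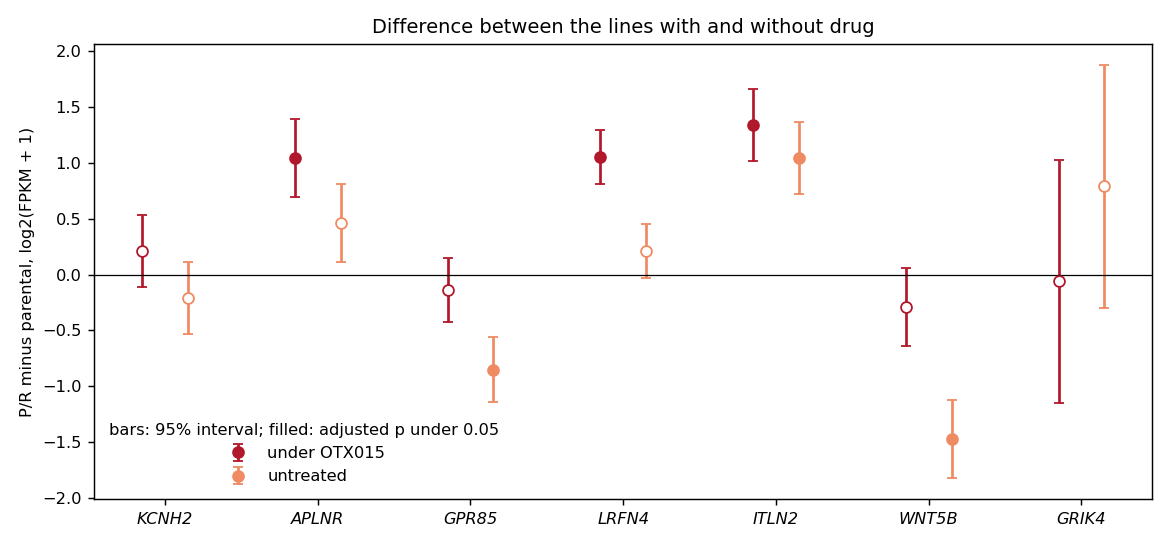
Difference between P/R and parental cells on the log2(FPKM + 1) scale for each gene, under OTX015 (left point) and untreated (right point); bars are 95% intervals from the shared fit and filled points have an adjusted p under 0.05. ITLN2 is above 0 in each state, LRFN4 and APLNR pass under OTX015, and WNT5B and GPR85 pass untreated.

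The 7 genes did not share 1 profile over the 8 libraries. Likeness was measured as the root mean square difference of log2(FPKM + 1) after each gene was centred on its own mean, so that 0 is an identical profile. The measure takes in the fall under OTX015 on which the members were chosen, so it favours other genes that fell. The distances are a description only. Among members APLNR and LRFN4 were nearest at 0.278, followed by APLNR and ITLN2 at 0.296, and ITLN2 and WNT5B were farthest at 1.09. Among other tested genes the nearest to LRFN4 was ACKR1 at 0.196, a chemokine receptor gene of red cells and venules, and LMO2, a regulator of blood stem cells, stood at 0.248. The nearest to GPR85 was CSF1 at 0.245, and to WNT5B it was PLVAP at 0.239, which encodes a protein of endothelial diaphragms, with ADGRG1 at 0.241 and PRF1 at 0.243. The nearest to APLNR was NOSTRIN at 0.367, a regulator of nitric oxide synthase traffic, to ITLN2 it was B3GNT7 at 0.292, and to KCNH2 it was IL1B at 0.402. NOSTRIN was also among the 3 nearest of LRFN4 (0.222), ITLN2 (0.359) and GRIK4 (0.584). GRIK4 had no close match, the nearest being CACNA2D3, a calcium channel subunit gene, at 0.519. The other genes among the nearest 3 were MS4A4A and CSF1 for KCNH2 (0.475 and 0.484), MYO3B and ACKR1 for APLNR (0.399 and 0.405), PLVAP and MS4A4A for GPR85 (0.331 and 0.335), GRAP2 for ITLN2 (0.381) and GOLGA8Q for GRIK4 (0.578).

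The neighbours of the 7 genes on the chromosome were read next, as the nearest listed coding gene on each side, and none of these was used to choose the members. Of 14 neighbours 10 were tested. Under OTX015 4 fell and 3 rose in P/R cells, and 4 fell and 3 rose in parental cells, against 21.8% lower and 22.5% higher of all tested genes in P/R cells (44.3% in all) and 24.7% lower and 25.7% higher in parental cells (50.4% in all). In P/R cells 4 neighbours in all passed without untreated replicate 2, and likewise without OTX015 replicate 1 or without OTX015 replicate 2. The neighbours thus moved in both directions beside members that all fell.

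NOS3, the endothelial nitric oxide synthase gene beside KCNH2 on chromosome 7, had the largest fall of the neighbours. It averaged 7.5 ± 1.32 FPKM under OTX015 and 19.2 ± 0.723 FPKM untreated in P/R cells (log2 change -1.26, adjusted p = 3.56e-05), and 3.58 ± 0.263 and 12.5 ± 0.416 FPKM under OTX015 and untreated in parental cells (-1.56, adjusted p = 7.76e-06). ITLN1, the other human intelectin and the neighbour of ITLN2 on chromosome 1, averaged 1.02 ± 0.0253 and 1.93 ± 0.731 FPKM in treated and untreated P/R cells (-0.52, adjusted p = 0.0262) and 1.48 ± 0.182 and 2.75 ± 0.112 FPKM in treated and untreated parental cells (-0.60, adjusted p = 0.0122). Its fall was smaller than that of ITLN2 and, unlike ITLN2, its line differences did not pass (adjusted p = 0.125 untreated and 0.218 under OTX015). The call of ITLN1 ended in 5 alternatives in P/R cells and 2 in parental cells (adjusted p up to 0.196 and 0.0732 in limma). F11R, on the other side of ITLN2, rose by 0.50 in P/R and 0.45 in parental cells, calls that ended in 1 and 2 alternatives (adjusted p up to 0.0558 and 0.07).

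PC, the pyruvate carboxylase gene that overlaps LRFN4 on chromosome 11, averaged 24.4 and 15.7 FPKM in treated and untreated P/R cells and 25.1 and 17.6 FPKM in treated and untreated parental cells, so it rose (0.62 and 0.49 on the log2 scale, adjusted p = 0.00352 and 0.00981) where LRFN4 fell; the parental call ended without parental OTX015 replicate 1 (adjusted p = 0.0535 in limma). FBXL14, which overlaps WNT5B on chromosome 12, fell by 0.24 in P/R cells and by 0.37 in parental cells, and its P/R call ended in 3 alternatives (adjusted p up to 0.083). ARHGEF12, beside GRIK4 on chromosome 11, rose by 0.56 in each line, and TBCEL on its other side did not pass. TNKS1BP1, beside APLNR on chromosome 11, fell by 0.29 in P/R cells and by 0.39 in parental cells, calls that ended in 7 alternatives in P/R cells, each P/R library left out among them, and in 2 in parental cells (adjusted p up to 0.171 and 0.0761). C7orf60 beside GPR85 and ERC1 beside WNT5B did not pass in either line. AOC1, PPP1R3A and C11orf86 were listed at 0 in all 8 libraries and LRRC55 did not exceed 0.0163 FPKM in any library, so these 4 were not tested.

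**Figure D5:**
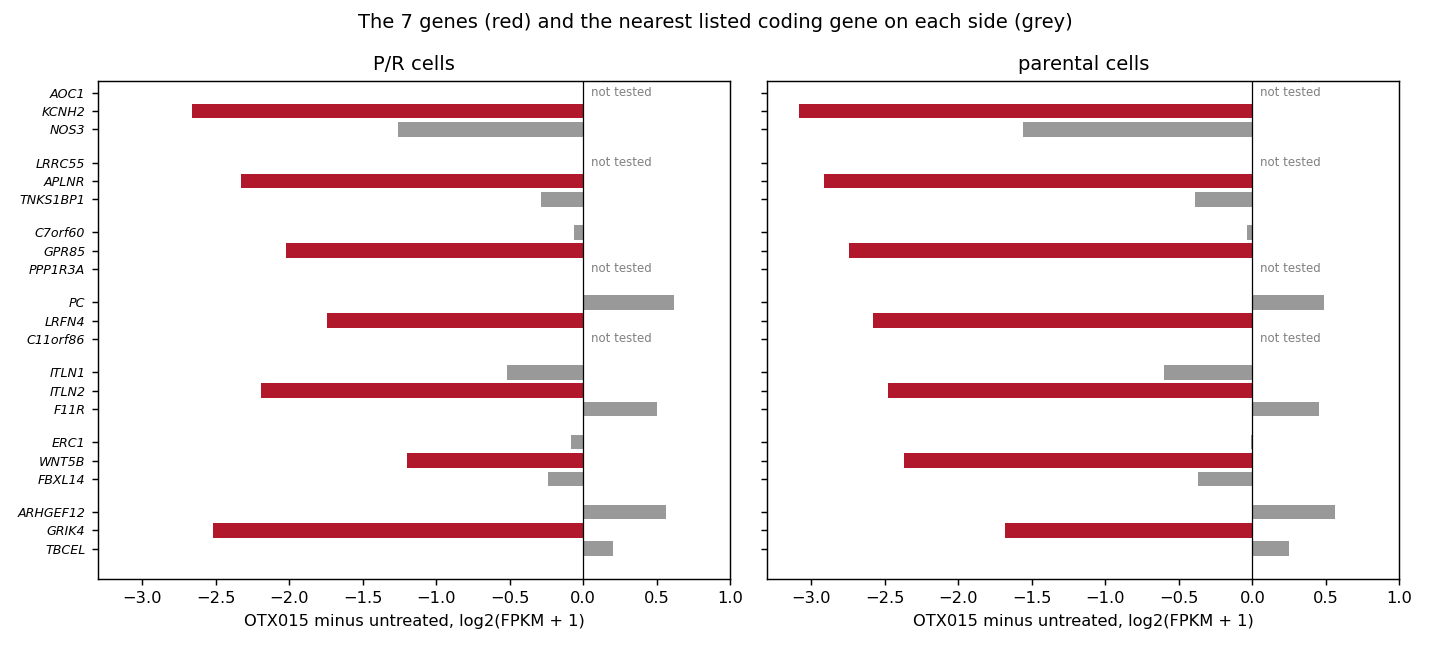
Change under OTX015 on the log2(FPKM + 1) scale for the 7 genes (red) and the nearest listed coding gene on each side (grey), in P/R cells (left) and parental cells (right). The bars of the 7 genes all point to lower values, NOS3 beside KCNH2 does so at -1.26 in P/R and -1.56 in parental cells, and those of PC, F11R and ARHGEF12 point to higher values.

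Relatives and partners of each member were then counted, with the members themselves left out. The lists were chosen with earlier results of these data known, so their counts are a description. Of 32 listed potassium channel genes 9 were tested, and 5 fell and 0 rose in P/R cells under OTX015, and 7 fell and 0 rose in parental cells, with median log2 changes of -0.66 and -0.53 against 0.01 and 0.02 for all tested genes, of which 21.8% fell in P/R cells and 24.7% in parental cells. KCNN4, the calcium-activated channel of red cells, averaged 13.9 ± 1.87 and 35 ± 2.03 FPKM in treated and untreated P/R cells (log2 change -1.28) and 20.9 ± 0.19 and 49.5 ± 0.715 FPKM in treated and untreated parental cells (-1.21). KCNK6, a background channel, fell by 0.78 in P/R cells and by 1.28 in parental cells, and KCNQ5, a voltage-gated channel gene, by 0.85 in P/R cells and by 0.76 in parental cells. KCNE3, an auxiliary subunit of voltage-gated channels, averaged 18.7 ± 0.893 and 33.6 ± 0.781 FPKM in treated and untreated P/R cells (-0.81) and 10.2 ± 0.739 and 23.7 ± 3.28 FPKM in treated and untreated parental cells (-1.14). None of these reached the fall of KCNH2, and no other gene of the KCNH family passed the filter on low values. Between the lines 1 was higher and 3 were lower in untreated P/R cells, and 2 were higher and 2 lower under OTX015. Of all tested genes 23.5% passed between the lines untreated and 24.4% under OTX015.

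No gene of the lists of relatives and partners, and no neighbour, passed the test of a difference in response between the lines, which 0.0800% of all tested genes passed (9 genes).

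The ligand genes of APLNR were scarcely detected, APLN at no more than 0.0549 FPKM and APELA listed at 0 in every library. Of the other SREB receptors GPR27 was listed at 0 and GPR173 did not exceed 0.588 FPKM. Of 10 tested genes on this list, mostly G protein and arrestin genes that act below such receptors, 3 fell and 3 rose in P/R cells under OTX015, and 4 fell and 2 rose in parental cells, with medians of 0.04 and 0.11; 44.3% and 50.4% of all tested genes passed in either direction. The P/R count was 3 without P/R OTX015 replicate 2. ARRB1, the gene of β-arrestin 1, fell by 0.22 in P/R cells and by 0.53 in parental cells, and ADRBK1, a receptor kinase gene, by 0.37 and 0.55, while GNAI2 of the inhibitory G protein rose by 0.54 and 0.55. GRK5 also rose, by 0.54 in P/R cells and 0.40 in parental cells, and GNA11 rose by 0.39 in P/R cells. In limma the P/R calls of ARRB1 and GNA11 ended in 1 and 2 alternatives (adjusted p up to 0.0562 and 0.0807) and the parental call of GRK5 in 2 (up to 0.0773). Between the lines 2 were higher and 0 lower in untreated P/R cells, which was 1 without P/R untreated replicate 2, and 5 were higher and 1 lower under OTX015, which was 2 in all without parental OTX015 replicate 1 or P/R OTX015 replicate 1 and 3 without parental OTX015 replicate 2. The shares of all tested genes that passed between the lines were 23.5% untreated and 24.4% under OTX015.

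Of 6 tested genes among LRFN4's relatives, presynaptic partners and scaffolds, 3 fell and 0 rose in P/R cells under OTX015, and 2 fell and 0 rose in parental cells, with medians of -0.31 and -0.22, against 21.8% and 24.7% of all tested genes that fell. The parental count was 1 without parental untreated replicate 1 and 1 without parental OTX015 replicate 1. LRFN1 averaged 1.24 ± 0.0354 and 2.48 ± 0.0709 FPKM in treated and untreated P/R cells (-0.64) and 1.37 ± 0.292 and 2.57 ± 0.0709 FPKM in treated and untreated parental cells (-0.59). LRFN3 did not pass in either line (0.17 in P/R and 0.03 in parental cells), and LRFN2 and LRFN5 were listed at 0, so LRFN4 was the most abundant of the family on this per-length scale in untreated cells. PTPRD and PTPRF, receptor phosphatase genes, fell by 0.66 and 0.34 in P/R cells, and the scaffold gene DLG4 fell by 0.47 in parental cells. The call of PTPRF ended in 5 alternatives, each P/R library left out among them, and that of DLG4 in 3 (adjusted p up to 0.124 and 0.136 in limma). Between the lines 3 were higher and 0 lower in P/R cells, both untreated and under OTX015, against 11.7% of all tested genes higher untreated and 12.7% under OTX015.

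Of 16 tested WNT ligand, receptor, secretion and inhibitor genes, 2 fell and 3 rose in P/R cells under OTX015, and 3 fell and 3 rose in parental cells, with medians of -0.02 and -0.07; the shares that passed in either direction were below those of all tested genes, 44.3% and 50.4%. WNT10B, a ligand that acts through β-catenin, averaged 1.88 ± 0.18 and 5.28 ± 0.113 FPKM in treated and untreated P/R cells (-1.13) and 1.66 ± 0.316 and 5.7 ± 0.151 FPKM in treated and untreated parental cells (-1.34). NOTUM, a secreted enzyme that inactivates WNT proteins, fell by 0.95 and 0.96, and SFRP5, a secreted WNT antagonist, fell by 0.77 in parental cells. The receptor genes FZD7 and LRP6 rose, by 0.77 and 0.75 in P/R cells and by 0.59 and 0.41 in parental cells. In untreated P/R cells 1 was higher and 4 were lower than in parental cells (3 in all without parental untreated replicate 1), and under OTX015 1 was higher and 3 were lower. Of all tested genes 23.5% passed between the lines untreated and 24.4% under OTX015. Of the 4 lower in untreated P/R cells, FZD7 averaged 1.09 ± 0.147 FPKM in untreated P/R cells and 4.35 ± 0.138 FPKM in untreated parental cells (-1.36, adjusted p = 2.18e-05 in limma). ROR2, a receptor of β-catenin-independent WNT signalling named after its values were seen, averaged 0.734 ± 0.237 and 3.23 ± 0.4 FPKM (-1.29, adjusted p = 0.000173). The others were the receptor gene FZD2 (-0.69, adjusted p = 0.00258) and the antagonist gene SFRP5 (-0.89, adjusted p = 0.000535). The untreated P/R means of ROR2 and SFRP5 (0.43 FPKM) were below 1 FPKM, where values are least precise. The 1 higher was the receptor gene FZD5 (0.37, adjusted p = 0.0331 in limma), a call that ended in 5 alternatives. The receptor gene RYK did not pass untreated (-0.10, adjusted p = 0.614).

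Of 5 tested glutamate receptor genes, 1 fell and 0 rose in P/R cells under OTX015, and 3 fell and 0 rose in parental cells, with medians of -0.08 and -0.22, against 21.8% and 24.7% of all tested genes that fell. The parental count was 1 without parental untreated replicate 2. GRIN2D, an NMDA receptor subunit gene, averaged 12 ± 1.06 and 16.3 ± 1.07 FPKM in treated and untreated P/R cells (-0.42) and 4.82 ± 0.314 and 9.37 ± 0.325 FPKM in treated and untreated parental cells (-0.83). GRIK2 and GRIK5, kainate receptor subunits, fell by 0.47 and 0.22 in parental cells and did not pass in P/R cells; the call of GRIK5 ended without each parental library in turn (adjusted p up to 0.179 in limma). GRIK1 did not exceed 0.0627 FPKM and GRIK3 was listed at 0, and the mean of GRIK2, also known as a partner of GRIK4 in a channel, was between 0.62 and 1.46 FPKM in the 4 groups. Between the lines 2 were higher and 1 was lower in P/R cells, both untreated and under OTX015, against 23.5% and 24.4% of all tested genes that passed.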

How the data were processed

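The authors deposited 1 table of 19718 coding genes in 8 libraries, with values taken as FPKM from their range and from the tools listed. Per the submitters' processing notes these were TopHat2 2.0 and Cufflinks 2.0, on hg19; no source used here states their settings. The deposited FPKM values were quantile normalized: sorted values of at least 1 FPKM differ by at most 0.136% between libraries. This fixes the total of each library and hides global change. Replicates correlated at 0.996 to 0.997 across genes, against 0.959 to 0.985 between groups. Of the symbols, 28 had become bare numbers and were named through gene identifiers.

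Genes with at least 1 FPKM in at least 2 libraries were tested (11255). A model of 4 group means was fitted to log2(FPKM + 1) in limma 3.58.1 (R 4.3.3, eBayes with a variance trend), two-sided, adjusted by Benjamini-Hochberg over all genes, threshold 0.05, with 4 residual degrees of freedom (prior 5.23), and 95% intervals used 2.254 standard errors. The fit was tested on simulated data. The members and lists were chosen with earlier results of these data known. Genes named are the members, HEXIM1 and MYC as a check of the drug, cell type markers, in each line the 3 largest falls of other genes, the 3 nearest profiles, the neighbours and up to 5 called genes of each list (potassium channels, apelin and SREB receptors, LRFN and adhesion, intelectin, WNT, glutamate receptors), besides the relatives and partners of each member. One gene that this rule would name is not reported here. Neighbours follow GENCODE 29 gene order, matched by identifier. That annotation is on GRCh38 rather than hg19, and its gene coordinates gave the order and the overlaps named. Promoter coordinates are those of the RefSeq table. Python 3.11.15, pandas 2.3.3 and matplotlib 3.10.9 were used. Alternatives were pseudocounts, filters, no trend, median centring, fits of the groups compared, a replicate block and leaving out each library.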

Additional observations from a re-analysis of the deposited data

How the results depend on the processing

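The calls that GPR85 and WNT5B were lower and ITLN2 higher in untreated P/R cells, and that APLNR, LRFN4 and ITLN2 were higher under OTX015, passed in every alternative in which the gene was tested, with adjusted p up to 0.0145 in limma (APLNR under OTX015). WNT5B was not tested where a mean of at least 5 FPKM was asked for. Every alternative used the same chosen members, so none bears on the effect of that choice, and the calls remain a description. In untreated cells 5 members were called where the groups compared were fitted alone, and 3 to 5 without each library in turn. Over all alternatives the adjusted p in untreated cells ran from 0.00463 to 0.208 for APLNR and from 0.0216 to 0.59 for KCNH2. Under OTX015 the direction was not settled for the 3 members closest to 0: KCNH2 ran from -0.06 to 0.49 and GPR85 from -0.32 to 0.05, the low ends without P/R OTX015 replicate 1 and the high ends without replicate 2. GRIK4 ran from -0.65 to 0.54, and was 0.44 without parental OTX015 replicate 2. The cause was not tested. Between the lines 1594 to 2684 of all tested genes were called untreated and 1758 to 2624 under OTX015 when each library was left out in turn.

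Replicate numbers did not pair the libraries: deviations of same-numbered libraries correlated between -0.12 and 0.104 over 6 pairs of groups. With the replicate number as a block, 4 members were called in untreated cells, APLNR (adjusted p = 0.0478 in limma) being added, and 3 under OTX015.

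Asking for a mean of at least 5 FPKM removes low genes: it left 1 adhesion and 1 WNT gene called between the lines in each state, 4 potassium channel, 1 adhesion and 1 WNT gene under OTX015 in parental cells, and 0 adhesion genes and 1 WNT gene in P/R cells. With no filter 1 adhesion and 10 WNT genes were called in parental cells and 2 glutamate receptor genes in P/R cells. Fitting the groups compared alone gave 3 apelin and SREB genes between the lines under OTX015. Without each library in turn, the apelin and SREB count was 1 to 2 between untreated lines, 2 to 6 between treated lines and 3 to 6 in P/R cells under OTX015, and the WNT count between untreated lines 3 to 5. Likewise 1 to 3 adhesion genes and 1 to 3 glutamate receptor genes were called in parental cells under OTX015, 4 to 7 neighbours in P/R cells under OTX015, and 2 to 4 neighbours between treated lines, where the full fit called 4. With unknown depth and 2 libraries a group, differences in genes near 1 FPKM, WNT5B under OTX015 among them, are the least certain.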
